A study of Mus musculus with 4 samples.

Results

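The 33 genes described here serve the unfolded protein response and protein folding in the endoplasmic reticulum (ER), and were chosen by symbol from the 18276 genes of the table, all 33 being present. They comprise stress sensors and transcription factors, chaperones and their helpers, disulfide enzymes, and genes of protein translocation and of ER-associated degradation. Poly(A) RNA was sequenced from mouse osteoclast progenitors, sorted from fresh bone marrow as cells lacking B220, CD3 and Mac-1 and carrying CD115, the receptor encoded by Csf1r. The Ptip_KO group comprised 2 libraries from Ptip flox/flox Mx-1Cre mice, which carry floxed alleles of Ptip (gene symbol Paxip1), whose product works with enzymes that methylate histone H3. The WT group comprised 2 libraries from WT Mx-1Cre mice, in which Ptip is intact, and both groups were on the B6;129 background. Both groups carry Mx-1Cre, a recombinase driven by an interferon-inducible promoter that is active in many blood and other cells, so the deletion need not be restricted to osteoclast progenitors. The labels used here give neither the age of the mice nor any agent used to induce the recombinase.

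The ER folds secreted and membrane proteins, and the unfolded protein response adjusts its capacity to the load. Its sensors sit in the ER membrane and are held quiet by the chaperone BiP. ATF6 is cut in the Golgi to release a transcription factor that raises ER chaperones. IRE1 splices the mRNA of Xbp1, whose product raises genes of translocation, folding and degradation. PERK phosphorylates the initiation factor eIF2 alpha, which slows translation and favours that of Atf4, and ATF4 in turn raises Ddit3 and Trib3. The arms share many targets, so each gene was placed with the arm usually named as leading for it, and 5 genes were left without an arm. Counts per gene do not separate spliced from unspliced Xbp1, and cleavage of ATF6 or phosphorylation of PERK leaves no direct trace in them.

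ATF6 binds the ER stress response element (ERSE), which has the letters CCAAT and CCACG separated by 9 bases of any kind, together with the factor NF-Y. The element was sought on both strands in the 250 bases before the RefSeq start of each gene (build GRCm38.p6), where 28 of the 33 members had a window. Atf6, Hyou1, Manf, Derl1 and Sec61a1 had no window and were not searched. An exact ERSE was found in 10 of the 28 searched (35.7%), against 35 of all 27025 genes with a window (0.130%). The sites are shown because they are a sequence feature that many members had in common. Members were chosen by symbol, without reading sequence, but as known genes of the response to which ATF6 and its element belong. The higher share among members is therefore not independent of how members and element were chosen, and it was not tested. Capitals mark the fixed letters, lower case the spacer, and each site is written 5′ to 3′ in the orientation of the element.
Hspa5: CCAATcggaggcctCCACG
Hsp90b1, far site: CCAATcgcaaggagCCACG
Hsp90b1, near site: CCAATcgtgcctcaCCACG
Pdia6: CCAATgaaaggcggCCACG
Calr: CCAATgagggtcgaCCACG
Canx: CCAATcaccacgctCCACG
Creld2: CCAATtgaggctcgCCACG
Dnajc3: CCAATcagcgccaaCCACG
Derl3: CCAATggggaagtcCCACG
Syvn1: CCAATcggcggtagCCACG
Ero1lb: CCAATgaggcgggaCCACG

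The fixed letters were identical by construction, while the 9-base spacers differed between all 11 sites. The Hspa5 site lies at chr2:34772025-34772043, 47 to 65 bases before the RefSeq start. It is past the outermost GENCODE start of Hspa5 (34771970, plus strand), and so inside the GENCODE gene. The Pdia6 site lies at chr12:17266491-17266509, 80 to 98 bases before its RefSeq start. Hsp90b1 was the only member with 2 sites, at chr10:86705638-86705656 in the orientation of the gene and at chr10:86705533-86705551 in the opposite one. The related element ERSE-II (ATTGG and CCACG separated by 1 base, the CCACG being shared with the ERSE) was found in 1 member, Herpud1, at chr8:94386377-94386387, and in 10 of the 27025 genes (0.0370%). With at most 1 of the 10 fixed letters of the ERSE changed, 14 of 28 members and 1.51% of all genes had a match, Pdia4, Pdia3, Sel1l and Ddit3 being the members added. The core letters of the XBP1 element, TGACGTGG, were in 0 of 28 member windows and 0.603% of genes. The core of the ATF4 element, TGATGCAA, was in 1 member, Herpud1, and in 0.918% of genes. A match describes letters in a window and is not evidence of binding.

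The windows of Pdia6, the member with the lowest fold change, and of Hsp90b1, with its pair of elements, are printed from 250 bases before the RefSeq start to the outermost GENCODE start of the gene, with the fixed letters in capitals. A site in the opposite orientation reads ATTGG and CGTGG. The Sdf2l1 window is shown beside them because Sdf2l1 was also called lower and has no exact ERSE there. Hyou1, also called lower, had no window, so whether it holds an ERSE was not examined.
Pdia6 (chr12:17266339-17266544, plus strand): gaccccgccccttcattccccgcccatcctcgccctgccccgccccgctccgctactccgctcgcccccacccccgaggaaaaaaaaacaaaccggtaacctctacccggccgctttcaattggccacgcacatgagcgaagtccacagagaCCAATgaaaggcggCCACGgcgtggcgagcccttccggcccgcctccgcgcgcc
Hsp90b1 (chr10:86705510-86705694, minus strand): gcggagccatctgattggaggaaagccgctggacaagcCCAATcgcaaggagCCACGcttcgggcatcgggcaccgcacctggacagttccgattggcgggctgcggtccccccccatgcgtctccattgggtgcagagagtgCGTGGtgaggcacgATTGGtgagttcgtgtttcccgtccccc
Sdf2l1 (chr16:17132384-17132633, minus strand): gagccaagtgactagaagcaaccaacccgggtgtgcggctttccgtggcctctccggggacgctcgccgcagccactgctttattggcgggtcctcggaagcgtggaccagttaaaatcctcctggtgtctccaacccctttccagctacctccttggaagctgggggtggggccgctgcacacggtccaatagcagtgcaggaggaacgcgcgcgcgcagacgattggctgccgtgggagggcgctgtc

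Reads recovered over the genes of the table numbered between 67592972 and 77773478 per library. Values are CPM, read counts scaled by the authors to an effective library size. Paxip1 was at 5.10 and 3.73 CPM in Ptip_KO, against 106 and 103 CPM in WT, a log2 fold change of −4.29. Log values correlated across genes at 0.993 between the Ptip_KO libraries, 0.990 between the WT libraries and 0.969 to 0.975 between groups. Of 12357 tested genes, 477 (3.86%) were lower and 300 (2.43%) higher in Ptip_KO by limma at a Benjamini-Hochberg adjusted p under 0.05. No label says that replicates were separate animals, so the p-values cover only the spread among these 4 samples, which may be technical, and the smallest two-sided p of an exact permutation test with 2 against 2 is 0.333.

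In Ptip_KO progenitors the RNA of 3 ER folding genes fell, most other chaperones and disulfide isomerases lay below WT without passing the test, and no gene of the PERK arm was called. Of the 33 members 32 were tested, Trib3 reaching 1 CPM in only 1 library. The chaperone partner Sdf2l1, the chaperone Hyou1 and the disulfide isomerase Pdia6 fell, which is 9.38% of the tested members against 3.86% of all tested genes. No member was called higher by limma (background 2.43%), where 11 were lower and 1 was higher at an unadjusted p under 0.05, against 12.5% of all tested genes lower and 11.2% higher. The edgeR test on recovered reads called 3 lower (Sdf2l1, Pdia6 and Hsp90b1; background 3.37%) and 0 higher (background 1.97%). DESeq2 called 13 lower (background 9.11%) and 1 higher (background 6.31%).

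In 18 of the 32 tested members both Ptip_KO libraries were below both WT libraries, and in 2, Ern1 and Dnajb9, both were above. Over all tested genes 27.3% were below in this sense and 27.7% above. The log2 fold change was negative for 25 of 32 members, against 49.5% of all tested genes, with a median of −0.22 against 0.00 for all tested genes. Summed over the 33 members, the level was 8696 and 8431 CPM in Ptip_KO, against 10336 and 10023 CPM in WT. The groups did not overlap in this sum, which a few abundant genes dominate.

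By arm, the difference was uneven. Of 12 ATF6 arm members, 3 fell and none rose by limma, 11 lay below zero on the log2 scale and the median was −0.38. In the same arm edgeR called 3 lower and 0 higher, DESeq2 called 9 lower and 0 higher, and 8 were lower and 0 higher at an unadjusted limma p under 0.05 (backgrounds as above, 12.5% lower and 11.2% higher, also for the next 2 arms). Of 12 IRE1 arm members, 0 were called by limma or edgeR, 1 was lower and 1 higher by DESeq2 and at an unadjusted limma p under 0.05, and the median was −0.14. Of 3 tested PERK arm members, 0 were called by limma, edgeR or DESeq2 or at an unadjusted limma p under 0.05, and the median was 0.01. The median of the 5 members without an arm was −0.25, close to that of all members. The difference between arms was not tested, and the arms were set with earlier results of these data known. Without Ptip_KO replicate 1, limma called 0 members lower (background 2.74%) and 0 higher (background 0.914%), with 7 lower and 2 higher at an unadjusted p under 0.05 (background 8.55% and 6.19%). Without Ptip_KO replicate 2 it also called 0 lower (background 2.86%) and 0 higher (background 0.995%), with 5 lower and 0 higher unadjusted (background 8.46% and 6.32%). The ATF6 median was −0.36 and −0.35 in these fits. Without WT replicate 1, 6 were lower (background 7.36%) and 0 higher (background 4.73%), with a members' median of −0.15, and without WT replicate 2, 5 were lower (background 7.45%) and 1, Ern1, was higher (background 5.66%). Rescaled to a common sum, 1 was lower (background 2.66%) and 0 higher (background 2.07%).

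**Figure D1:**
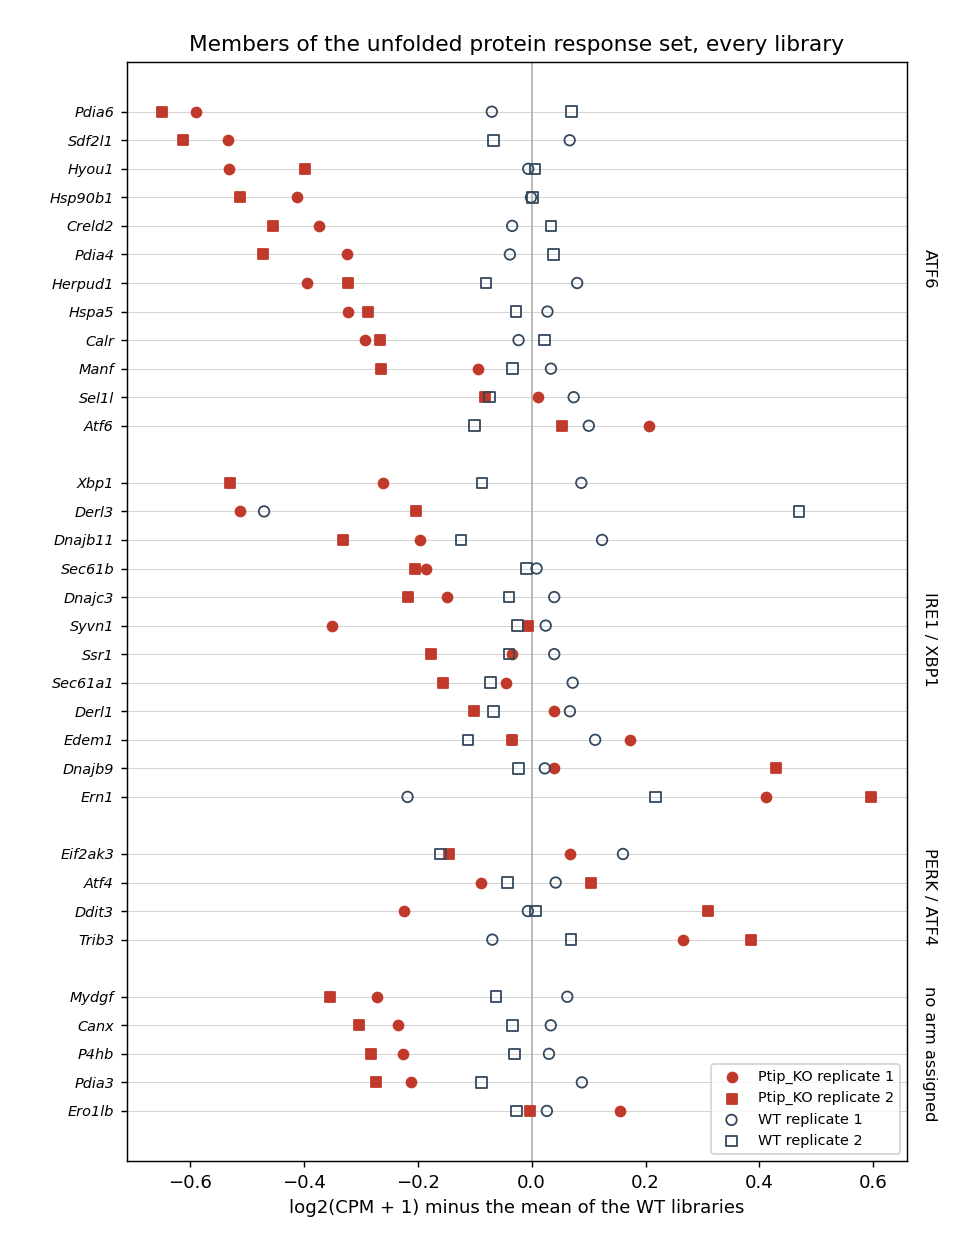
Level of each of the 33 members in each library, as log2(CPM + 1) minus the mean of the 2 WT libraries (horizontal axis), grouped by arm. Filled symbols are Ptip_KO libraries and open symbols WT libraries. In 10 of the 12 ATF6 arm members both filled symbols lie left of both open ones. Over all tested genes 27.3% had both Ptip_KO libraries below both WT libraries.

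Among the ATF6 arm genes, Pdia6, a protein disulfide isomerase that forms and shuffles disulfide bonds, had 289.6 and 278 CPM in Ptip_KO, against 415 and 458 CPM in WT. The groups lay well apart, with means of 284 ± 8.33 CPM in Ptip_KO, against 437 ± 29.9 CPM in WT (SD, n = 2 each), so that the Ptip_KO mean was 0.65 of the WT mean. On the log2 scale the change was −0.62 ± 0.0968 (standard error), and the limma adjusted p was 0.0263. Over 15 alternatives its adjusted p ran from 1.62e-07 by DESeq2 to 0.140 without Ptip_KO replicate 2 by limma. The call was lost in these alternatives without Ptip_KO replicate 1 (0.101), without Ptip_KO replicate 2 and when rescaled to a common sum (0.0501). Pdia6 (ENSMUSG00000020571.12) lies on chromosome 12 at 17266545 to 17284770 on GRCm38 and overlaps Atp6v1c2 on the opposite strand, and whether counting used strand is not given in the sources used here.

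Sdf2l1, which works with BiP in the ER lumen and keeps clients soluble, had 82.3 and 77.9 CPM in Ptip_KO, against 125 and 114 CPM in WT. Here too every Ptip_KO library was below every WT library, and the mean fell by 33.1%, to 80.1 ± 3.12 CPM in Ptip_KO against 120 ± 7.91 CPM in WT (SD, n = 2 each). The log2 fold change was −0.57 ± 0.0918 (standard error; limma adjusted p = 0.0274). Sdf2l1 was the only member called under all alternatives except those without a Ptip_KO library, where the limma adjusted p was 0.0866 without replicate 1 and 0.134 without replicate 2, with 1.09e-07 by DESeq2 the lowest of the 15. It lies on chromosome 16 at 17130138 to 17132383, with no overlapping gene.

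Hyou1, a large Hsp70-like chaperone that exchanges the nucleotide of BiP, had 224 and 246 CPM in Ptip_KO, against 323 and 325 CPM in WT. Its mean fell by 27.6%, and the WT libraries were close to each other (324 ± 1.89 CPM, against 235 ± 15.3 CPM in Ptip_KO, SD, n = 2 each). The log2 fold change was −0.46 (standard error 0.0921) and the limma adjusted p was 0.0468, just inside the threshold. Over 15 alternatives the adjusted p ran from 0.000150 by DESeq2 to 0.302 without Ptip_KO replicate 1, and it missed the threshold in 6, among them 0.151 without Ptip_KO replicate 2, 0.0559 by edgeR, 0.0742 at a common sum and 0.0506 with no filter. Hyou1 lies on chromosome 9 at 44379490 to 44392369.

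**Figure D2:**
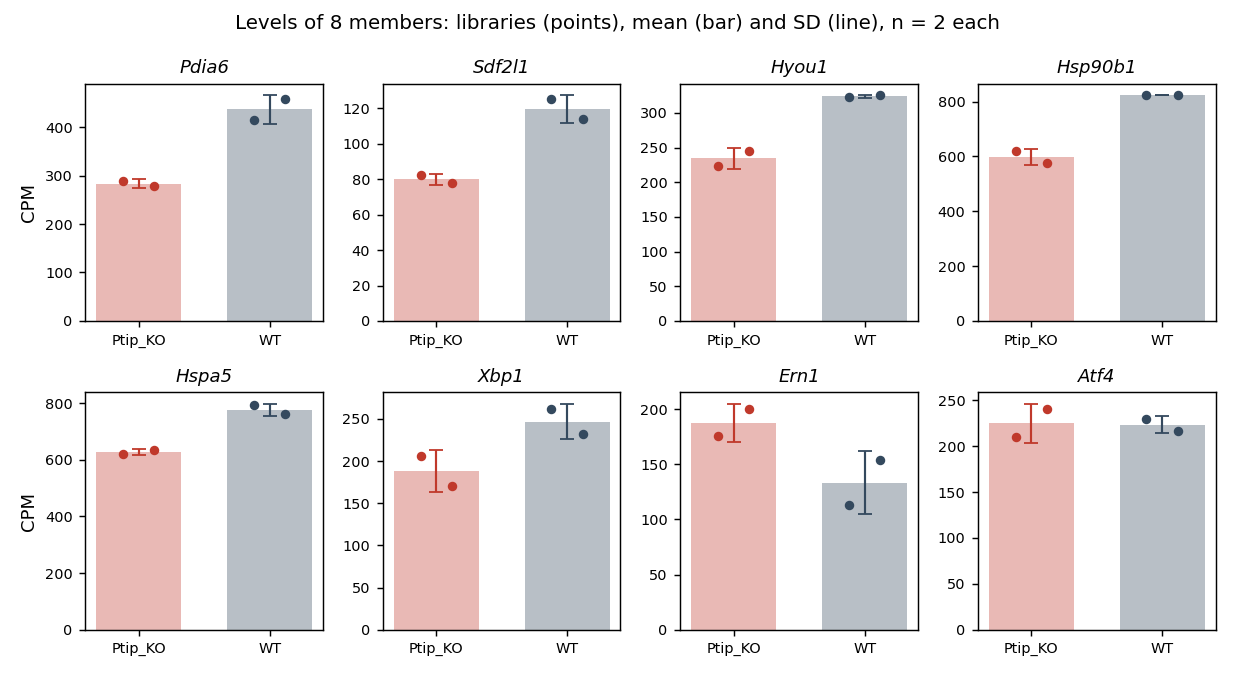
CPM of 8 members in the Ptip_KO (left) and WT (right) libraries, with the libraries as points, the mean as a bar and the SD as a line. Pdia6, Sdf2l1, Hyou1, Hsp90b1, Hspa5 and Xbp1 were below WT in both Ptip_KO libraries, Ern1 was above, and Atf4 overlapped.

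Hsp90b1, the ER member of the Hsp90 family (GRP94), had 618 and 577 CPM in Ptip_KO, against 822 and 824 CPM in WT. With a log2 fold change of −0.46 it was as far from zero as Hyou1, and its limma adjusted p of 0.0576 missed the threshold (0.0454 by edgeR, 1.15e-06 by DESeq2, and up to 0.386 without Ptip_KO replicate 2). The opposite-strand gene overlapping it, 1810014B01Rik, was near 7 CPM, at 7.65 and 7.35 CPM in Ptip_KO, against 7.69 and 7.13 CPM in WT. Creld2, an ER-resident and secreted protein released under stress, had 39.0 and 36.8 CPM in Ptip_KO, against 49.6 and 52.1 CPM in WT. The groups did not overlap, with a difference of −0.41 on the log2 scale (limma adjusted p = 0.0577), and without WT replicate 1 the adjusted p was 0.0419 (0.00324 to 0.310 over 15 alternatives). Pdia4, a disulfide isomerase with several thioredoxin-like domains, had 249 and 224 CPM in Ptip_KO, against 303 and 319.9 CPM in WT. At a log2 fold change of −0.40 it missed the threshold (limma adjusted p = 0.0735), and passed it without WT replicate 1 at 0.0487 (0.00153 to 0.438 over 15 alternatives).

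Hspa5, which encodes BiP, the central ER Hsp70, had 621 and 636 CPM in Ptip_KO, against 792 and 762 CPM in WT. Both Ptip_KO libraries were below WT, with a log2 fold change of −0.30, a 95% interval of −0.55 to −0.06 and a limma adjusted p of 0.136, which misses the threshold (0.00231 by DESeq2 and 0.599 at most over 15 alternatives). Calr, the lectin chaperone calreticulin, had 1344 and 1370.5 CPM in Ptip_KO, against 1622 and 1674 CPM in WT. Its groups were apart as well, by −0.28 on the log2 scale (95% interval −0.56 to 0.00, limma adjusted p = 0.216). Herpud1, an ER membrane protein of the degradation machinery, had 117 and 123 CPM in Ptip_KO, against 163 and 146 CPM in WT, at −0.36 on the log2 scale and a limma adjusted p of 0.0897 (0.0315 without WT replicate 2, and 0.00540 to 0.428 over 15 alternatives). Manf, a secreted ER protein that protects stressed cells, had 113 and 99.98 CPM in Ptip_KO, against 123 and 117 CPM in WT, which is −0.18 on the log2 scale (limma adjusted p = 0.328) and −0.095 without Ptip_KO replicate 2. Manf overlaps Rbm15b on the same strand, at 120.4 and 127 CPM in Ptip_KO, against 132 and 124 CPM in WT. On the opposite strand Manf overlaps Dcaf1, at 43.1 and 44.5 CPM in Ptip_KO, against 51.6 and 58.7 CPM in WT.

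Of the ATF6 arm members, Atf6 itself and Sel1l had overlapping groups. Atf6 had 162 and 146 CPM in Ptip_KO, against 151 and 131 CPM in WT, a log2 fold change of 0.13 with a 95% interval of −0.14 to 0.40. The sensor's own RNA was thus the one value above zero in its arm. Sel1l, the adaptor of the HRD1 ubiquitin ligase in ER-associated degradation, had 149 and 139.5 CPM in Ptip_KO, against 156 and 140.3 CPM in WT (log2 fold change −0.04, 95% interval −0.27 to 0.20).

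**Figure D3:**
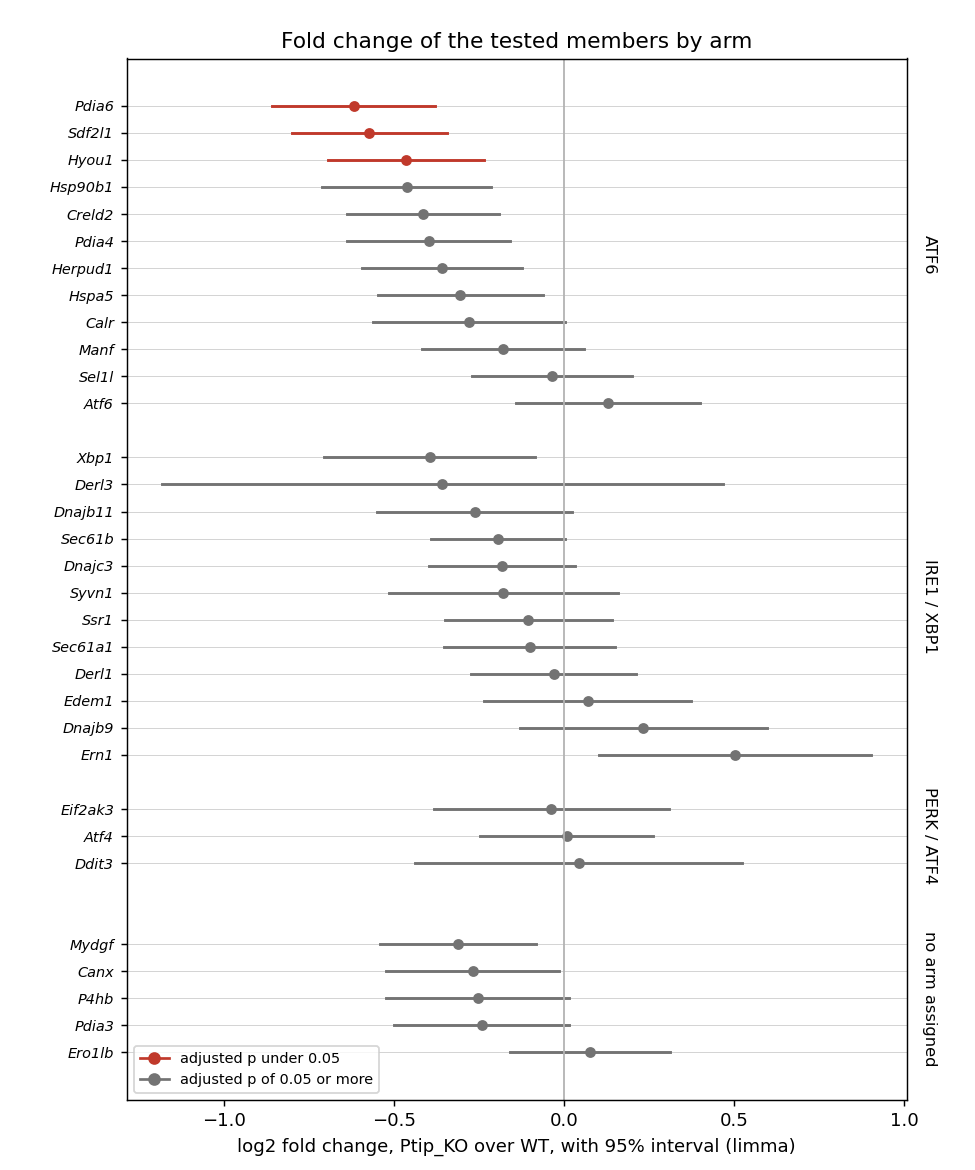
Log2 fold change (Ptip_KO over WT, on the log2(CPM + 1) scale) of the 32 tested members with 95% limma intervals, grouped by arm. Pdia6, Sdf2l1 and Hyou1 (red) passed the adjusted threshold, and the 3 PERK arm intervals include zero.

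In the IRE1 arm the sensor and its transcription factor lay on opposite sides of WT. Ern1, which encodes IRE1 alpha, had 176 and 199.9 CPM in Ptip_KO, against 113 and 154 CPM in WT. Both Ptip_KO libraries were above both WT libraries, but WT replicate 1 was far below replicate 2, and the log2 fold change of 0.50 (95% interval 0.10 to 0.90) did not pass (limma adjusted p = 0.136). The adjusted p was 0.00382 without WT replicate 2 and 0.0470 by DESeq2, within a range of 0.00382 to 0.413 over 15 alternatives, and without WT replicate 1 the log2 fold change was 0.29 at an adjusted p of 0.199. Xbp1 had 206 and 170.3 CPM in Ptip_KO, against 262 and 232 CPM in WT. The groups did not overlap, and the log2 fold change of −0.40 (95% interval −0.71 to −0.08) did not pass (limma adjusted p = 0.133), while it did at 0.0435 without WT replicate 2 and at 0.0149 by DESeq2 (0.577 at most over 15 alternatives, with a log2 fold change of −0.26 without Ptip_KO replicate 2).

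The other IRE1 arm genes were cochaperones and genes of degradation and translocation. Among the cochaperones, which stimulate BiP, Dnajb11 had 116 and 106 CPM in Ptip_KO, against 145 and 122 CPM in WT (limma adjusted p = 0.240). Dnajc3, which also binds unfolded proteins, had 194 and 184 CPM in Ptip_KO, against 221 and 209 CPM in WT (limma adjusted p = 0.273). In both the Ptip_KO libraries were the lower ones, whereas Dnajb9, the cochaperone that helps BiP to repress IRE1, had 29.5 and 38.95 CPM in Ptip_KO, against 29.2 and 28.2 CPM in WT. The higher Dnajb9 level rested on Ptip_KO replicate 2, since replicate 1 was next to the WT libraries, and the limma adjusted p was 0.400. Of the degradation genes of this arm, Edem1, a mannosidase-like lectin, had 319 and 276 CPM in Ptip_KO, against 305 and 261 CPM in WT. Derl1, a channel subunit, had 137 and 125 CPM in Ptip_KO, against 140.05 and 127 CPM in WT, and Syvn1, the HRD1 ubiquitin ligase, had 27.2 and 34.8 CPM in Ptip_KO, against 35.6 and 34.4 CPM in WT. All these degradation genes had overlapping groups, with limma adjusted p between 0.486 and 0.892. Derl1 has a near-identical processed pseudogene, Gm35638, so its counts are uncertain. Mrpl49 overlaps Syvn1 on the opposite strand, at 39.3 and 41.7 CPM in Ptip_KO, against 48.4 and 42.4 CPM in WT.

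Derl3, a derlin typical of secretory cells, had 1.14 and 1.66 CPM in Ptip_KO, against 1.21 and 3.23 CPM in WT. The WT mean rested on replicate 2, and the log2 fold change of −0.36 became 0.11 without that library, while it was −0.83 with WT replicate 1 left out (limma adjusted p = 0.0406, and 0.889 at most over 14 alternatives). The translocation genes stayed near WT. Sec61a1, the pore of the translocon, had 364 and 338 CPM in Ptip_KO, against 395 and 358 CPM in WT, and Ssr1, a subunit of the translocon-associated complex, had 380.1 and 344 CPM in Ptip_KO, against 399.9 and 378 CPM in WT. Sec61b, a small translocon subunit, had 109.6 and 108 CPM in Ptip_KO, against 126 and 124 CPM in WT. Only for Sec61b among these were the groups apart, at −0.19 on the log2 scale (limma adjusted p = 0.217), and its counts are uncertain because of 3 near-identical copies (Gm10320, Gm33666 and Gm5870). Sec61a1 shares sequence with the antisense gene Gm44170, which was below 0.3 CPM in every library.

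The PERK arm showed no call in either direction. Eif2ak3, which encodes PERK, had 79.3 and 68.3 CPM in Ptip_KO, against 84.6 and 67.5 CPM in WT. Atf4 had 210.1 and 240.2 CPM in Ptip_KO, against 230.2 and 217 CPM in WT, a log2 fold change of 0.01 with a 95% interval of −0.25 to 0.26. Ddit3, the transcription factor CHOP, which promotes cell death under lasting stress, had 7.66 and 11.5 CPM in Ptip_KO, against 9.06 and 9.16 CPM in WT. The Ptip_KO libraries lay on either side of WT for Ddit3 and for Atf4, and the limma adjusted p of the 3 tested genes was between 0.906 and 0.976. Trib3, a pseudokinase that dampens ATF4 signalling, was above WT in both Ptip_KO libraries, at a ratio of means of 1.66, with 0.946 and 1.11 CPM in Ptip_KO, against 0.543 and 0.697 CPM in WT, and was not tested. Since translation of Atf4 is controlled after transcription, its RNA does not measure its protein. Mars overlaps Ddit3 on the opposite strand, at 90.8 and 94.3 CPM in Ptip_KO, against 101 and 91.8 CPM in WT.

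Of the members without an arm, Canx, the membrane-bound lectin chaperone calnexin, had 758 and 723 CPM in Ptip_KO, against 914 and 872 CPM in WT. P4hb, the archetypal protein disulfide isomerase, had 1048 and 1008 CPM in Ptip_KO, against 1252 and 1200.0 CPM in WT, and Pdia3, the isomerase that works with calnexin and calreticulin, had 404 and 387 CPM in Ptip_KO, against 497 and 440.0 CPM in WT. In each of these the groups did not overlap, with log2 fold changes of −0.27, −0.25 and −0.24 and limma adjusted p between 0.190 and 0.234. Mydgf, an ER-retained and secreted growth factor, had 55.4 and 52.3 CPM in Ptip_KO, against 70.1 and 64.2 CPM in WT (log2 fold change −0.31, limma adjusted p = 0.118). Ero1lb, an oxidase that recharges the disulfide isomerases, had 66.7 and 59.7 CPM in Ptip_KO, against 61.0 and 58.7 CPM in WT, with overlapping groups. It has a near-identical unprocessed pseudogene, Gm18562, so its counts are uncertain.

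The abundance of the members per exon length varied widely. Per kilobase of exon, Calr was the most abundant, at 471 CPM per kb in Ptip_KO, against 572 CPM per kb in WT, followed by P4hb at 359 CPM per kb in Ptip_KO, against 428 CPM per kb in WT. The sensors were far lower, with Ern1 at 23.0 CPM per kb in Ptip_KO, against 16.3 CPM per kb in WT, and Trib3 was lowest at 0.484 CPM per kb in Ptip_KO, against 0.292 CPM per kb in WT. Across the 32 tested members, the log2 fold change and the WT level per kb were negatively related (Spearman rho −0.54), as a description over genes of the same 4 libraries. Since WT levels enter both quantities, part of such a relation arises by construction.

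Members with an ERSE in their window had a summed level of 3958 and 3901 CPM in Ptip_KO, against 4933 and 4946 CPM in WT. Of these 10, 1 was called lower by limma and 9 lay below zero, with a median log2 fold change of −0.29. The 17 tested members with a window but no ERSE had a median of −0.19, with 1 called lower, and 12 with a negative value. Over all tested genes 3.86% were called lower, 2.43% were called higher and 49.5% were negative. A single call in sets of this size is too few to set against those shares. The difference between members with and without an ERSE was not tested. Among other tested genes with a window, 6 of 9182 (0.0653%) held an ERSE, and their median was −0.05. Acacb, an acetyl-CoA carboxylase, was called higher among these 6, at 4.10 and 4.47 CPM in Ptip_KO, against 1.21 and 1.496 CPM in WT (limma adjusted p = 0.0191), and it was named after its value was seen. Of these 6 genes, 4 had negative and 2 positive log2 fold changes, and 2 had overlapping groups. So few genes do not describe genes with the element at large. Whether binding at these elements differs between the groups was not measured.

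**Figure D4:**
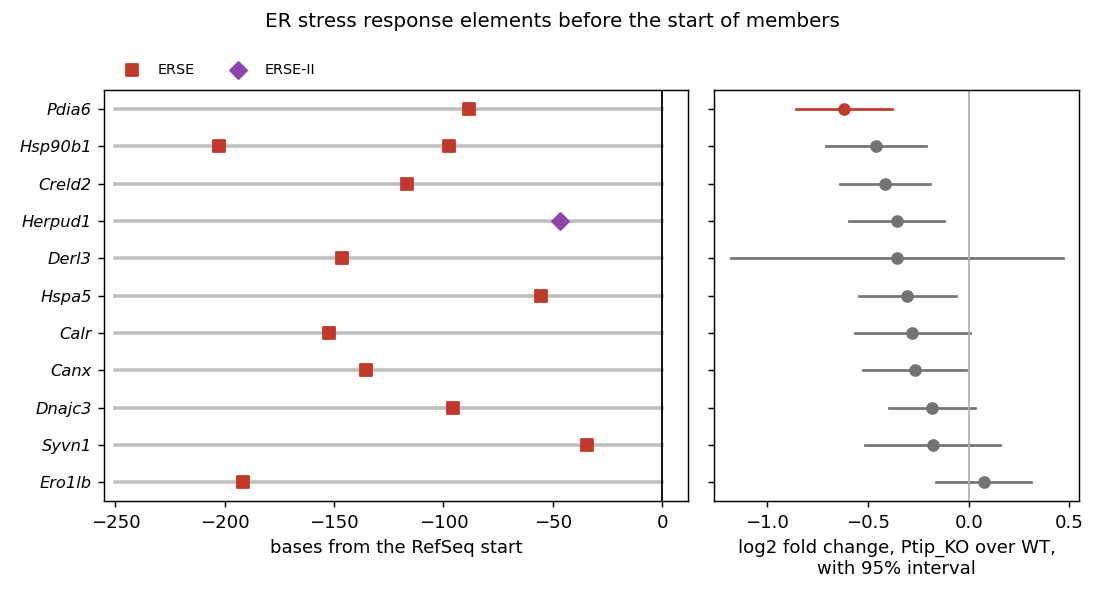
Left, distance in bases from the RefSeq start to the centre of each exact ERSE (square) or ERSE-II (diamond) in the 250 bases before the start, for the 11 members with one. Right, log2 fold change of the same members (Ptip_KO over WT) with 95% limma intervals, with the called member Pdia6 in red; 10 of the 11 values are negative.

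A further 7 lists held other genes of the pathway, chosen with earlier results of these data known. Of their 152 tested genes, 1 was called lower and 1 higher by limma, 83 were below zero on the log2 scale, and the median was −0.02. These are 0.658% lower calls, under the 3.86% of all tested genes. The edgeR test also called 1 lower and 1 higher, and DESeq2 called 14 lower (background 9.11%) and 2 higher (background 6.31%), so that its lower calls were close to the background. Without Ptip_KO replicate 1, 1 was lower and 0 higher, without Ptip_KO replicate 2, 0 were called, without WT replicate 1, 3 were lower and 2 higher (background 7.36% and 4.73%), and without WT replicate 2, 6 were lower and 4 higher (background 7.45% and 5.66%). Sesn2, a stress-induced inhibitor of mTORC1 signalling, fell among the 26 tested PERK and ATF4 targets, with 15.3 and 14.3 CPM in Ptip_KO, against 28.9 and 25.3 CPM in WT (log2 fold change −0.83, limma adjusted p = 0.0194). Tmx4, a membrane-bound thioredoxin-like protein, rose among the 15 other disulfide enzymes, with 194 and 181 CPM in Ptip_KO, against 116 and 125 CPM in WT (log2 fold change 0.64, limma adjusted p = 0.0218).

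The other genes of these lists did not pass. The median of the PERK and ATF4 targets was 0.00, and the gene with the next smallest p there was Mthfd2, a mitochondrial folate enzyme, at 36.4 and 37.8 CPM in Ptip_KO, against 65.1 and 48.0 CPM in WT (limma adjusted p = 0.0899). Among 22 other chaperones and glycoprotein folding genes the median was −0.03, with the largest differences upward. These were Fkbp7, an ER prolyl isomerase, at 5.25 and 4.62 CPM in Ptip_KO, against 2.08 and 3.14 CPM in WT, and Dnajc1, an ER membrane J protein, at 45.3 and 48.4 CPM in Ptip_KO, against 37.2 and 39.6 CPM in WT. Both lay above WT in each library, opposite to most of the chaperones among the members. The 28 genes of translocation and N-glycosylation had a median of −0.06, with Srprb, a subunit of the signal recognition particle receptor, at 25.4 and 23.9 CPM in Ptip_KO, against 39.0 and 32.8 CPM in WT (limma adjusted p = 0.0626) and Ssr2 at 168 and 156 CPM in Ptip_KO, against 191 and 183 CPM in WT.

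In the remaining lists the differences were small. Among 22 ER to Golgi export genes (median −0.05), Lman1, a cargo receptor, had 142 and 140.3 CPM in Ptip_KO, against 172 and 180.1 CPM in WT, and Copz1, a coatomer subunit, had 113 and 100.3 CPM in Ptip_KO, against 145 and 126 CPM in WT. Both lay below WT without passing, at limma adjusted p of 0.0888 and 0.143. The 22 other degradation genes had a median of 0.01, with Aup1 at 138 and 135 CPM in Ptip_KO, against 172 and 158 CPM in WT and Herpud2 at 45.5 and 44.0 CPM in Ptip_KO, against 38.3 and 37.9 CPM in WT. Herpud2, a homologue of Herpud1, thus lay on the other side of WT. Among 17 sensor and signalling genes (median 0.04), Atf6b, the homologue of Atf6, had 95.9 and 87.7 CPM in Ptip_KO, against 124 and 111 CPM in WT, and Eif2ak4, the amino acid sensor GCN2, had 48.3 and 55.0 CPM in Ptip_KO, against 37.9 and 42.5 CPM in WT. Ero1l, the main ER oxidase, had 85.7 and 88.7 CPM in Ptip_KO, against 104.4 and 104.8 CPM in WT (limma adjusted p = 0.129).

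**Figure D5:**
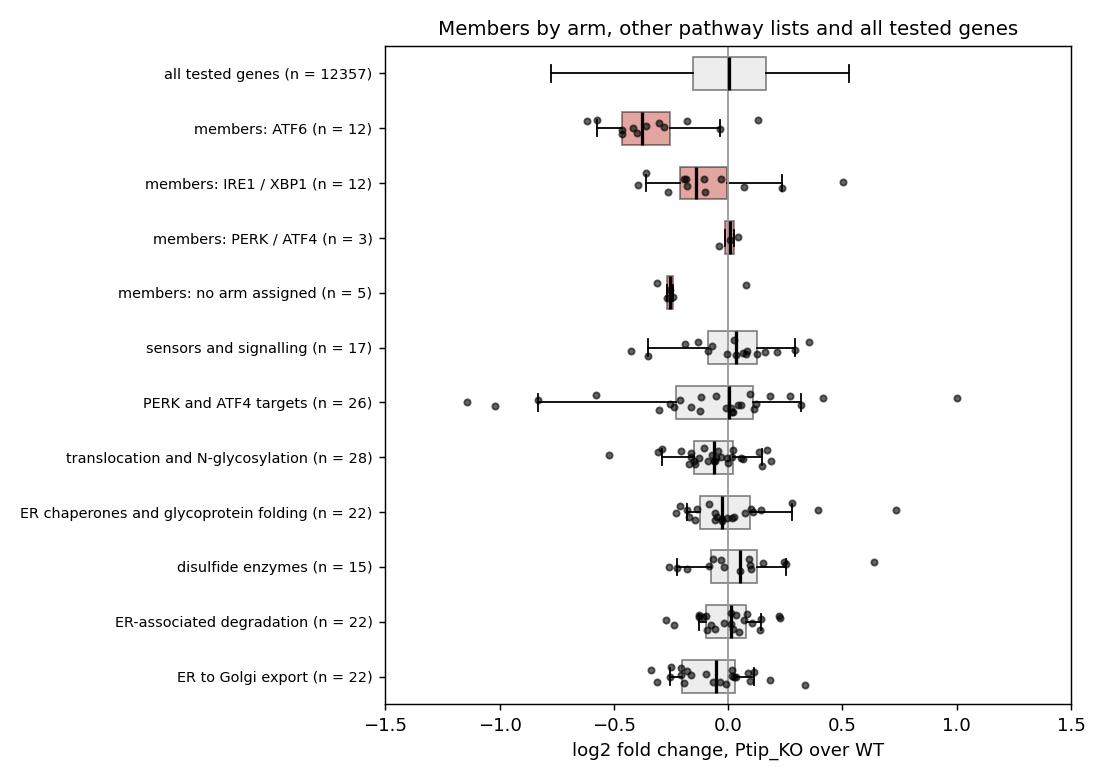
Log2 fold change (Ptip_KO over WT) of all tested genes, of the members by arm and of 7 further lists, with each listed gene as a point, the median as a thick line, the quartiles as a box and the 5th to 95th percentiles as whiskers. The ATF6 arm has its median at −0.38, and the medians of the 7 other lists lie between −0.06 and 0.05.

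Markers of other cell types moved with the groups. In these bulk samples, fewer cells of a type and less RNA per cell cannot be told apart. Of 10 red cell markers 8 were lower by limma, with a sum of 811 and 1104 CPM in Ptip_KO, against 2092 and 4827 CPM in WT, and of 7 tested macrophage markers 6 were lower, with sums over 10 genes of 18.7 and 22.6 CPM in Ptip_KO, against 125 and 101 CPM in WT. Of 8 neutrophil markers 0 were called by limma and 5 were lower at an unadjusted limma p under 0.05, with a sum of 1183 and 868 CPM in Ptip_KO, against 2027 and 3969 CPM in WT. Plasma cells are rich in ER chaperones, and their 12 markers summed to 1754 and 1670.5 CPM in Ptip_KO, against 2207 and 2653 CPM in WT, with Irf4 lower by limma among 11 tested, 5 lower and 0 higher at an unadjusted p under 0.05, and a median of −0.41. Among these 5, Sdc1 was at 3.11 and 2.43 CPM in Ptip_KO, against 6.23 and 13.6 CPM in WT, and Igkc at 353 and 382 CPM in Ptip_KO, against 584 and 1094 CPM in WT, both named after their values were seen. Of the 11 tested, 6 lay below WT in both Ptip_KO libraries, 5 overlapped, and 2 had positive log2 fold changes. Jchain, which overlapped, had 117 and 89.3 CPM in Ptip_KO, against 88.3 and 208 CPM in WT, so its WT libraries also differed. The list shares Txndc5 and Fkbp11 with the pathway lists. No marker of these lists was at 0 in all libraries. The WT libraries differed from each other by more than 1.5-fold in the red cell and neutrophil sums. The part of these cell types in the lower chaperone levels was not tested.

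The sorted cell type and 5 other marker sets were examined in the same way. Csf1r, which the sort used, was at 825 and 782 CPM in Ptip_KO, against 677 and 606 CPM in WT (limma adjusted p = 0.149). Of 11 monocyte and osteoclast progenitor markers 3 were lower and none higher by limma, with 4 lower and 1 higher at an unadjusted p under 0.05. Those called were Kit, Flt3 and Cd14, with log2 fold changes of −1.91, −0.90 and −1.02. The 11 summed to 9172 and 7409 CPM in Ptip_KO, against 14170 and 9438 CPM in WT. Much of this was Lyz2, at 5168 and 4004 CPM in Ptip_KO, against 9364 and 5438 CPM in WT. Neutrophil precursor markers include granule proteins made in the ER. Their sums overlapped between groups, at 11526 and 12283 CPM in Ptip_KO, against 9527 and 12614 CPM in WT. Most of each sum was Mpo, at 7772 and 8481 CPM in Ptip_KO, against 5885 and 8162 CPM in WT. Of the 8 genes 0 were called by limma, 5 had negative log2 fold changes and 3 positive ones. In 6 the groups overlapped, and in 2 both Ptip_KO libraries were below WT, against 27.3% of all tested genes. Plasmacytoid dendritic cell markers summed to 1079.8 and 910.2 CPM in Ptip_KO, against 1104 and 1024 CPM in WT. Irf8 made up most of each sum, at 917 and 754 CPM in Ptip_KO, against 985 and 887 CPM in WT. Tcf4 was higher by limma, the other 5 of 6 tested genes lay below zero, and the median was −0.19. Of those 5, 2 were lower at an unadjusted limma p under 0.05. B lineage markers were low, at 56.5 and 52.4 CPM in Ptip_KO, against 30.1 and 48.2 CPM in WT. Of 2 tested genes 1 was higher, Cd79b. It made up most of each sum, at 52.4 and 49.1 CPM in Ptip_KO, against 27.0 and 34.8 CPM in WT. T and NK cell markers were at 34.7 and 48.7 CPM in Ptip_KO, against 48.9 and 68.5 CPM in WT. Nkg7, the only gene of that list tested, made up nearly all of this. It had 33.5 and 47.3 CPM in Ptip_KO, against 47.1 and 66.4 CPM in WT. The sums of the 10 handling and stress genes overlapped between groups, at 1561 and 2933 CPM in Ptip_KO, against 2353 and 1685 CPM in WT. The 2 replicates of a group differed more than the groups. Of these 10 genes 9 had overlapping groups. Hsph1 was below WT, at 23.1 and 35.3 CPM in Ptip_KO, against 45.8 and 40.9 CPM in WT (limma adjusted p = 0.157). Hspa1a had 16.1 and 222 CPM in Ptip_KO, against 99.6 and 66.1 CPM in WT. Hspa1b had 12.1 and 207 CPM in Ptip_KO, against 79.8 and 71.9 CPM in WT. These genes were named after their values were seen.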

How the data were processed

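The deposited table gives 1 value per gene and library, a normalized signal that the authors name edgeR CPM on the effective library size. Per the submitters' processing notes, the build was mm10 and the tools were edgeR 3.8.6, HTSeq 0.6.0 and TopHat2 2.0.10, without the role of each or the strand setting. Columns were matched to samples by description, where the second WT sample by title is described as WT_3, so replicate numbers do not tie libraries across groups. Every value was a whole multiple of what 1 read is worth in its library (100% of values within 0.01 read), so reads were recovered, and the 3 reads still possible at a count of 0 lie between 0.0380 and 0.0428 CPM, a limit for counting error alone.

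Genes that reached 1 CPM in 2 or more libraries entered the test, a 2-sided limma fit (version 3.58.1, R 4.3.3) of genotype to log2(CPM + 1) whose variance prior follows the mean level. Benjamini-Hochberg adjustment ran over all 12357 of them at 0.05. Fold changes on this scale understate changes of low genes. Alternatives were pseudocounts of 0.25 and 5, dropping the filter or raising it to 5 CPM, other scalings (equal library sums, or median-of-ratios factors), a robust prior, the replicate number as a block, each library left out (the lone sample being assumed to vary like the other group), and edgeR 4.0.16 and DESeq2 1.42.0 on recovered reads. The edgeR fit with the authors' effective library sizes was added after the data were seen.

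A chi-square test of replicate counts over genes gave 54.5 (Ptip_KO) and 117 (WT) per degree of freedom, above counting noise alone, so no pair was merged. Gene symbols and coordinates come from GENCODE M21 (GRCm38, which mm10 is), where 92.19% of identifiers had the same version, and windows before gene starts from RefSeq (GRCm38.p6). Near-identical copies were transcripts with 95% identity over at least 200 nucleotides and 50% of the shorter transcript by BLAST 2.17.0. All 33 members are named, and in the 7 further lists (157 of 159 genes in the table) every called gene and the 2 with the smallest p of each list. Members, lists, arms and motifs were chosen with earlier results of these data known.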

Additional observations from a re-analysis of the deposited data

How the results depend on the processing

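Member values under 15 alternatives numbered 479, of which 427 kept their direction and their side of the threshold, 25 passed it in addition, 11 no longer passed it and 16 turned direction, none of these 16 past the threshold. The counts of called genes varied most. DESeq2 called 1126 genes lower and 780 higher, 13 members lower and 1 higher, 9 of the ATF6 arm lower, 1 of the IRE1 arm lower and 1 higher, and 14 of the other pathway lists lower and 2 higher. With the replicate number as a block, whose pairing the labels do not give, the second WT library by title being described as WT_3 (correlation of deviations of same-numbered libraries 0.332), limma called 1030 genes lower (8.34%) and 691 higher (5.59%), 8 members lower and 1 higher, 6 of the ATF6 arm lower, 1 of the IRE1 arm lower and 1 higher, and 6 of the other lists lower and 3 higher. Rescaled to a common sum, 1 member, in the ATF6 arm, was lower and the medians were −0.17 for all members and −0.33 for the ATF6 arm, and with a robust prior 2 of the other lists were lower. With each library left out in turn, the genes called lower ranged from 339 to 920 and those higher from 113 to 700, members lower from 0 to 6 and higher from 0 to 1, ATF6 arm members lower from 0 to 5, IRE1 arm members lower from 0 to 1 and higher from 0 to 1, and other list genes lower from 0 to 6 and higher from 0 to 4. The median ranged from −0.24 to −0.15 for all members and from −0.37 to −0.35 for the ATF6 arm. The cause of these shifts was not tested.

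The log2 fold changes that turned direction were near zero or rested on 1 library. At a common sum these were Derl1 (0.020), Eif2ak3 (0.012) and Sel1l (0.015). With each library left out the ranges were −0.089 to 0.10 for Atf4, −0.22 to 0.31 for Ddit3, −0.10 to 0.039 for Derl1, −0.83 to 0.11 for Derl3, −0.042 to 0.18 for Edem1, −0.20 to 0.12 for Eif2ak3, −0.0029 to 0.15 for Ero1lb and −0.11 to 0.039 for Sel1l. Depth was not limiting for most members, and the exceptions were Derl3, at about 1 to 3 CPM, and Trib3, which reached 1 CPM in only 1 library and was not tested. Without 1 library, log2 fold changes ranged from 0.039 to 0.43 for Dnajb9 and from −0.35 to −0.0060 for Syvn1, and were −0.14 for Dnajb11 and −0.15 for Pdia3 without WT replicate 1.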
